A study of Mus musculus with 232 samples.

Results

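The genes described here are 10 genes of the Polycomb repressive complexes, Ezh2, Ezh1, Eed, Suz12, Jarid2, Mtf2, Phf19, Rnf2, Ring1 and Cbx7, listed by name. All 10 were found by gene ID and symbol among the 42493 genes of the deposited tables. For each cell, the expected counts of its runs, the RSEM estimate of the reads that belong to a gene, were added up and compared across single mouse embryonic stem cells (ESCs) of 4 conditions. A mean count of at least 5 over all cells was reached by 11178 genes and by 8 of the 10, the exceptions being Phf19 and Ring1.

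Dgcr8-/- ESCs lack the partner of Drosha that cuts primary miRNA transcripts, and therefore nearly all mature miRNAs. The 4 conditions were mock-transfected Dgcr8-/- cells, Dgcr8-/- cells given a miR-294 mimic, Dgcr8-/- cells given a let-7 mimic, and wild-type (WT) ESCs, titled V6.5 in the labels. The let-7 mimic is let-7i in the sample titles, let-7b in the series design and let-7c in the study's text, and is called let-7 here. All cells were kept in serum with LIF and 2i, the inhibitors PD0325901 and CHIR99021, which hold ESCs undifferentiated. The protocol of every sample names Dharmafect 1 as the reagent, but the labels do not say whether WT cells were mock-transfected, so a ratio of mock to WT cells may hold transfection as well as genotype. Cells were caught on a Fluidigm C1 chip 24 h after transfection. The study used 1 chip for each condition and the labels name no separate cultures, so each condition is 1 sample, chip and condition cannot be told apart, and no test between conditions was possible. Of the miR-294 cells 3 carry titles of another form (MIR_294_), and no source used here says whether they came from the same chip; without them Ezh1 was still the 1 member past 2-fold after miR-294, at a log2 ratio of -1.08. The study also removed transfected cells in which the targets of the mimic were not lower, so that the mimic-treated cells were selected on expression.

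The tables held 232 runs of 182 cells. In 4 pairs of cells, 3 let-7 and 1 miR-294, the 2 profiles were as alike as 2 runs of 1 cell (r from 0.985 to 0.989), and each pair was counted as 1 cell. This left 60 mock, 16 WT, 45 let-7 and 57 miR-294 cells, with 513521 to 3979274 counts a cell and pooled sums of 104632008, 24459381, 73024074 and 99221096 counts. In 2 of the 50 cells with 2 runs, 1 WT and 1 let-7, the runs were as unlike as different cells (r of 0.488 and 0.50). Those cells were kept, and values without them are given where they matter. The targeted gene Dgcr8 had 118 CPM (counts scaled to a common total) in WT cells and 35.2 in mock cells; a count over the whole gene cannot show a deleted part. The fibroblast markers, which would mark feeder cells, summed to between 0.0818 and 6.61 CPM over the conditions, with 4 to 6 of the 7 at 0. Pluripotency markers were present in each condition, at 1182 CPM after let-7 and 2541 to 3361 CPM in the other conditions.

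Polycomb group proteins keep developmental genes silent. Polycomb repressive complex 2 (PRC2) places the mark H3K27me3 through Ezh2 or its paralogue Ezh1, each held in a core with Eed, which reads the mark, and Suz12, the scaffold. Jarid2 and the Polycomb-like proteins Mtf2 and Phf19 are accessory subunits that bring PRC2 to its targets and define alternative forms of the complex. PRC1 ubiquitinates histone H2A through Rnf2 (Ring1B) or Ring1 (Ring1A), and in its canonical form binds H3K27me3 through a chromodomain protein such as Cbx7. In ESCs the loss of PRC2 is tolerated but impairs differentiation.

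The mimics stand for miRNAs that recognize mRNAs mainly through the seed, bases 2 to 8, printed in capitals in the RefSeq mature sequences (GRCm38.p6), since the search of the members' 3′UTRs used only these bases. The 3 let-7 names share 1 seed, so the doubt over the name does not touch that search.
mmu-miR-294-3p: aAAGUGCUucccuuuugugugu
mmu-let-7c-5p: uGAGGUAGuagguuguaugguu
mmu-let-7b-5p: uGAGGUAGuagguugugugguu
mmu-let-7i-5p: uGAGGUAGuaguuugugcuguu
The complement of the miR-294 seed, AGCACTT, and that of the let-7 seed, CTACCTC, were looked for on the mRNA strand in the longest annotated 3′UTR of each member. Each was found in 1 of the 10 genes. The miR-294 match was in Ezh1 and the let-7 match in Ezh2, and both are shown in capitals with the bases around them.
Ezh1, chr11:101192010-101192032, minus strand, GRCm38: attcatagagaacaaAGCACTTt
Ezh2, chr6:47530527-47530549, minus strand, GRCm38: atcccttgacatctaCTACCTCt
The Ezh1 match began 922 bases after the stop codon, in a 3′UTR of 1824 bases. Of 1600 expressed genes with a 3′UTR within 20% of that length, 20.5% held the same letters. The Ezh2 match began 7 bases after the stop codon in a 3′UTR of 402 bases, and 3.62% of 802 genes of like length held it. A match is only a description of the letters. Ezh1 was also the only member in the lists of miR-294 and let-7 targets that the study took from earlier arrays and used to select transfected cells.

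Levels of different genes were compared per transcript length, with the deposited FPKM of each cell averaged over cells. In mock cells Mtf2 was highest at 152 ± 119 FPKM (SD over 60 cells), ahead of Jarid2 at 122 ± 96.8, Eed at 106 ± 75.1, Ezh2 at 94.9 ± 75.3, Suz12 at 81 ± 94.0 and Rnf2 at 58 ± 62.2. Neighbours in that order differed by less than the SD over cells. Ezh1 at 14.8 ± 25.5 and Cbx7 at 7.92 ± 28.6 were well under these 6 genes, and Phf19 at 0.858 and Ring1 at 0.768 were close to 0. The PRC2 core and its accessory subunits Jarid2 and Mtf2 were thus at similar levels, whereas the paralogue of each enzyme, Ezh1 beside Ezh2 and Ring1 beside Rnf2, was the lower of its pair in mock cells and in every other condition.

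**Figure D1:**
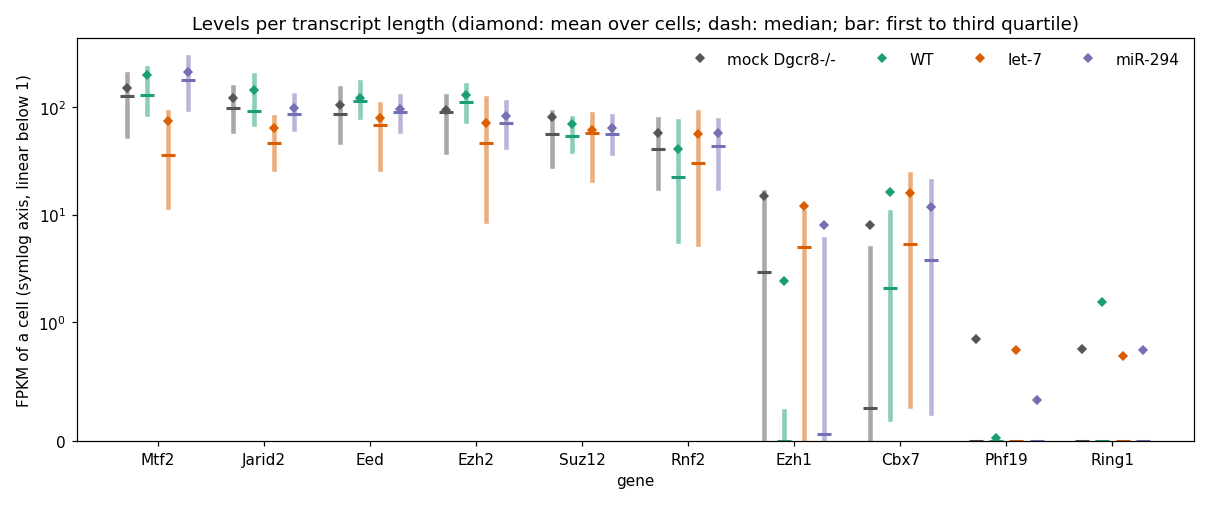
Deposited FPKM of the 10 genes in each condition, ordered by the mean in mock cells; the vertical axis is symlog, linear below 1 FPKM. Diamonds are means over cells, dashes medians and bars run from the first to the third quartile. The 6 genes on the left had means of 40.5 to 215 FPKM in all 4 conditions, and Phf19 and Ring1 had medians of 0.

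Ezh2 (ENSMUSG00000029687, chr6:47530139-47595341, minus strand), the main H3K27 methyltransferase of ESCs, was lower in all 3 Dgcr8-/- conditions than in WT cells, and lowest after let-7. Pooled levels were 289 CPM in WT, 217 in mock, 180 in miR-294 and 162 in let-7 cells, with counting intervals of at most 7 CPM on either side. The CPM of single cells ran from 0.384 through a median of 178 to 726 in mock cells and from 8.25 through 263 to 861 in WT cells. After miR-294 it ran from 6.26 through 164 to 737, and after let-7 from 0 through 107 to 654. The ranges overlapped throughout, and only let-7 cells lacked a count altogether, in 6 of 45. The ratio to mock cells was 1.34-fold lower after let-7 (interval 1.31 to 1.37) and 1.21-fold lower after miR-294 (1.19 to 1.23), and mock cells were 1.33-fold lower than WT (1.29 to 1.36). These intervals, like all others of levels and ratios here, are exact 95% intervals that cover counting error only, not the difference between 2 cultures or chips. Those of shares of cells are exact 95% intervals over the cells of 1 chip. No direction changed under the 11 alternative settings for each comparison.

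Ezh1 (ENSMUSG00000006920, chr11:101191115-101226463, minus strand), the paralogue that takes the place of Ezh2 mainly in cells that divide less, showed the widest difference of the 8 genes. Its pooled level was 43.8 CPM in mock cells (interval 42.5 to 45), 36.6 after let-7 (35.3 to 38), 20 after miR-294 (19.1 to 20.9) and 1.23 in WT cells (0.828 to 1.75). WT cells held 30 Ezh1 counts in all, of which 63.3% came from 1 cell. A count was found in 43 of 60 mock cells (71.7%, interval 58.6 to 82.5), 32 of 45 let-7 cells (71.1%, 55.7 to 83.6), 28 of 57 miR-294 cells (49.1%, 35.6 to 62.7) and 6 of 16 WT cells (37.5%, 15.2 to 64.6). With every cell thinned to 500000 counts, the shares were 63.3%, 66.7%, 40.4% and 25%. Single mock cells ran from 0 through a median of 9.37 to 581 CPM, and let-7 cells from 0 through 10.8 to 278. In miR-294 cells the median was 0 and the highest cell 199, and in WT cells the median was 0 and the highest 11.9. Every condition therefore held cells without an Ezh1 count, and thinning alone lowered each share, so a missing count need not mean a missing mRNA. Mock and let-7 shares were alike, those of miR-294 and WT cells were smaller, and the intervals of the shares overlapped. The conditions also differed in the height of the upper tail. Above the mock median lay 53.3% of let-7, 35.1% of miR-294 and 6.25% of WT cells.

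The pooled Ezh1 level of mock cells was 35.7 times that of WT cells (interval 25 to 52.9), or a log2 ratio of 5.05 with the pseudocount of 0.1 CPM that all log2 ratios here carry. Only 3.49% of genes passing the filter had a higher log2 ratio in that comparison. It was 5.93 when the highest cell of each condition was left out, and 2.57 as a ratio of mean FPKM, where WT cells averaged 2.41 ± 8.96 with a median of 0. After miR-294 Ezh1 was 2.19-fold lower than in mock cells (interval 2.08 to 2.31, log2 ratio -1.13), and its log2 ratio to WT cells was still 3.92 (ratio interval 11.4 to 24.2). The log2 ratio ranged from -1.63 with only the first run of each cell to -0.86 with mean FPKM, which is less than 2-fold. After let-7 the log2 ratio was -0.26, and it ranged from -0.92 to -0.23 over the alternatives. The gene with the miR-294 seed match was thus the member with the lowest log2 ratio after miR-294 among the 8, and the part in that value of the study's selection of cells on miR-294 targets, Ezh1 among them, was not tested.

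Set beside each other per length, Ezh1 made up 13.5% of the summed mean FPKM of Ezh1 and Ezh2 in mock cells, 14.5% after let-7, 8.83% after miR-294 and 1.82% in WT cells. Ezh1 exceeded Ezh2 in 5 of 60 mock cells, 7 of 45 let-7 cells, 5 of 57 miR-294 cells and 0 of 16 WT cells, where 3 of 16 cells, taken as the limit of a count of 0, would be 18.8%. The Ezh1 share of a single cell had a median of 4.25% in mock, 13.9% in let-7, 0.0444% in miR-294 and 0% in WT cells, and its highest values were 99.1%, 100%, 95.8% and 28.5%. The median cell therefore held mostly Ezh2 mRNA in each condition.

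**Figure D2:**
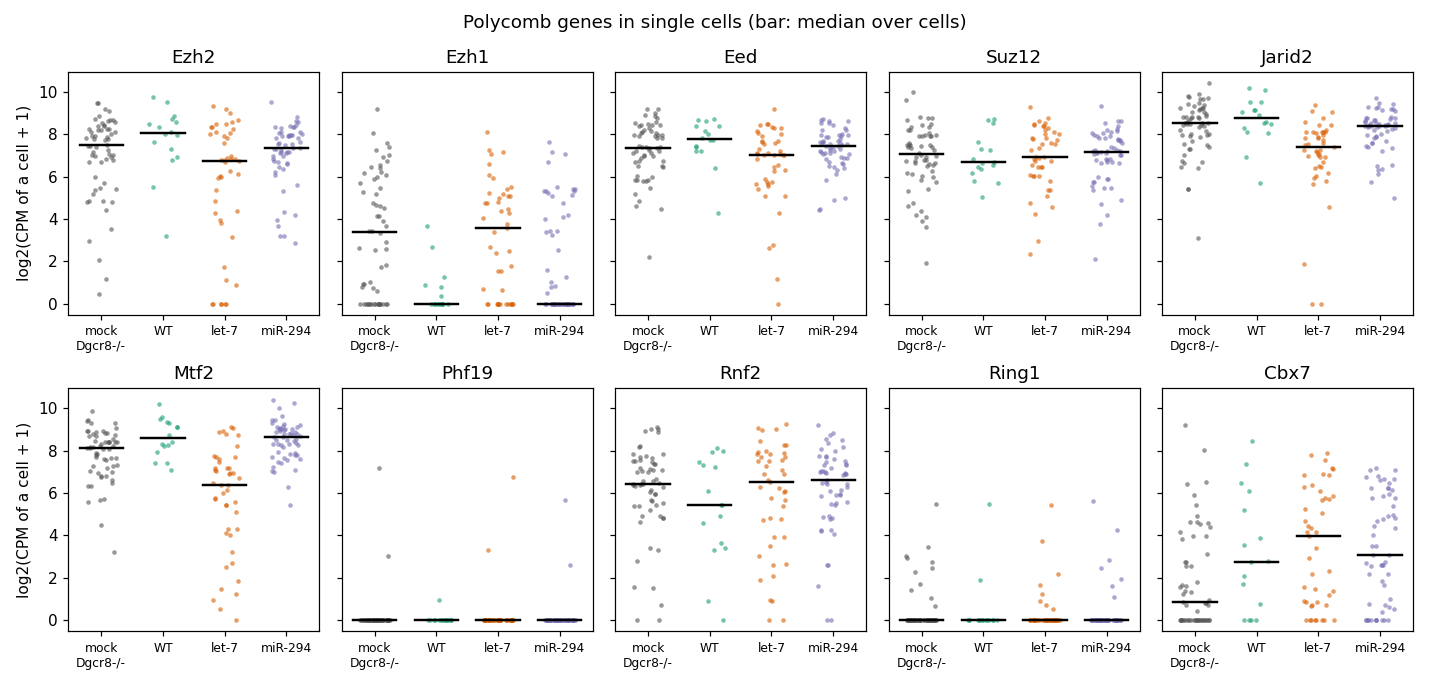
Each point is 1 cell, placed by the log2 of its CPM + 1, for the 10 genes in mock Dgcr8-/-, WT, let-7 and miR-294 cells; bars are medians over cells. Ezh1 sat at 0 in most WT cells, Mtf2 and Jarid2 had their lowest medians after let-7, and the ranges of the conditions overlapped for every gene.

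Of the other core subunits, Suz12 differed less than Ezh2 in pooled CPM in each comparison. Eed differed less than Ezh2 in mock against WT cells and slightly less after miR-294, but more after let-7. Eed (ENSMUSG00000030619, chr7:89954654-89980983, minus strand) had pooled levels of 226 CPM in WT, 210 in mock, 180 in miR-294 and 147 in let-7 cells. Its medians over cells were 222, 165, 175 and 132 CPM in the same order, with single cells between 0 and 597. Only let-7 held a cell without an Eed count, 1 of 45. Eed was 1.43-fold lower after let-7 than in mock cells (interval 1.40 to 1.46) and 1.17-fold lower after miR-294 (1.14 to 1.19), in the same direction under all 11 alternatives. Suz12 (ENSMUSG00000017548, chr11:79993106-80034123, plus strand) was counted in all 178 cells, the only member of which this held. Its pooled levels were 180, 159, 178 and 165 CPM in mock, WT, let-7 and miR-294 cells, and its medians 133, 101, 123 and 145 CPM. Its log2 ratios of -0.12 after miR-294, -0.02 after let-7 and 0.18 in mock against WT cells were the smallest of the 4 core genes after either mimic, and the let-7 value changed sign under 2 of 11 alternatives. After let-7 the log2 ratios of pooled CPM were thus -0.43 for Ezh2, -0.52 for Eed and -0.02 for Suz12. With mean FPKM in place of pooled CPM they were -0.41, -0.42 and -0.39, so whether Suz12 differed from the other 2 after let-7 depended on the unit.

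Among the accessory subunits, Mtf2 and Jarid2 were the members furthest below mock cells after let-7. Mtf2 (ENSMUSG00000029267, chr5:108065674-108109004, plus strand), a Polycomb-like protein that binds unmethylated CpG-rich DNA, was at 426 CPM in WT, 277 in mock, 416 in miR-294 and 126 in let-7 cells. Single WT cells ran from 136 through a median of 384 to 1166 CPM, and mock cells from 8.41 through 279 to 923. MiR-294 cells ran from 42.3 through 398 to 1350 CPM, and let-7 cells from 0 through 83 to 552. The let-7 cells were lowest in minimum, median and maximum, and miR-294 cells lay near WT cells. For Mtf2, cells above the mock median made up 15.6% of let-7, 70.2% of miR-294 and 75% of WT cells. Mtf2 was 2.2-fold lower after let-7 than in mock cells (interval 2.14 to 2.25), 1.5-fold higher after miR-294 (1.48 to 1.53), and 1.54-fold lower in mock than in WT cells (1.51 to 1.57). The log2 ratio after let-7 was -1.13, and it was -0.91, short of 2-fold, when only the first run of each cell was used. Relative to WT cells the log2 ratio of Mtf2 was -0.04 after miR-294 and -1.76 after let-7.

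Jarid2 (ENSMUSG00000038518, chr13:44729474-44921643, plus strand), a DNA-binding subunit that recruits PRC2 and stimulates it, was at 523 CPM in WT, 400 in mock, 355 in miR-294 and 215 in let-7 cells. Medians over cells were 436, 371, 337 and 169 CPM, and the highest cells 1155, 1382, 842 and 659 CPM. Of the let-7 cells 11.1% exceeded the mock median, against 62.5% of WT and 36.8% of miR-294 cells. Jarid2 was 1.86-fold lower after let-7 (interval 1.83 to 1.90) and 1.13-fold lower after miR-294 (1.11 to 1.14) than in mock cells. The log2 ratio after let-7 was -0.90, and 3 of the 11 alternatives put it past 2-fold, down to -1.10. Neither the Mtf2 nor the Jarid2 3′UTR held a let-7 seed match of this length.

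Both genes were under their mock medians in 33 of 45 let-7 cells, in 16 of 60 mock cells, 13 of 57 miR-294 cells and 0 of 16 WT cells, with the same limit of 18.8%. Each gene alone exceeded its mock median in few let-7 cells, 15.6% for Mtf2 and 11.1% for Jarid2. Spearman's rho between them over the 45 let-7 cells was -0.30, so the joint count does not show that they fell together. Per length, mean Mtf2 was 1.15 times mean Jarid2 after let-7, 1.24 times in mock, 1.39 times in WT and 2.17 times in miR-294 cells. Mtf2 was the higher of both in 77.2% of miR-294 cells and 42.2% of let-7 cells. Phf19 (ENSMUSG00000026873, chr2:34893757-34914026, minus strand), the other Polycomb-like protein, was counted in 7 of 178 cells, 2 each in mock, let-7 and miR-294 cells and 1 in WT. Of its 281 mock counts 97.5% came from 1 cell, so that its log2 ratios are those of single cells and no fold is given.

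Of the PRC1 members, Rnf2 (ENSMUSG00000026484, chr1:151458004-151500955, minus strand), the E3 ligase, was nearly level across Dgcr8-/- conditions. Its pooled levels were 132 CPM in mock, 144 in let-7, 127 in miR-294 and 99.9 in WT cells, and its medians 85.1, 90.3, 97.1 and 41.9 CPM. Mock cells were 1.32-fold higher than WT (interval 1.27 to 1.38), where 36.7% of the WT counts came from 1 cell. Its log2 ratios of -0.06 after miR-294 and 0.12 after let-7 changed sign under 2 and 1 of 11 alternatives. Its paralogue Ring1 (ENSMUSG00000024325, chr17:34020792-34024680, minus strand) was at 1.44 to 3.19 CPM and was counted in 11 of 60 mock, 2 of 16 WT, 8 of 45 let-7 and 7 of 57 miR-294 cells. In WT cells 1 cell gave 89.7% of the Ring1 counts, and without the highest cells the log2 ratio of mock to WT cells turned from -1.07 to 1.05.

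Cbx7 (ENSMUSG00000053411, chr15:79915807-79971119, minus strand), the main chromodomain subunit of PRC1 in ESCs, was lowest in mock cells, at 20.4 CPM (interval 19.5 to 21.3), against 39.9 in WT (37.5 to 42.5), 44 after let-7 (42.5 to 45.6) and 32.2 after miR-294 (31.1 to 33.4). Medians over cells were 0.783, 5.75, 14.5 and 7.54 CPM. A count was found in 35 of 60 mock cells (58.3%, interval 44.9 to 70.9), 12 of 16 WT cells (75%, 47.6 to 92.7), 37 of 45 let-7 cells (82.2%, 67.9 to 92) and 46 of 57 miR-294 cells (80.7%, 68.1 to 90). Thinned to 500000 counts, the shares were 46.7%, 68.8%, 66.7% and 75.4%. The highest mock cell, at 583 CPM, gave 43.6% of the mock counts, and in WT 1 cell gave 53.3%. Cbx7 was 2.16-fold higher after let-7 than in mock cells (interval 2.04 to 2.28) and 1.58-fold higher after miR-294 (1.5 to 1.67), and mock cells were 1.96-fold lower than WT (1.81 to 2.11). Without the highest cell of each condition the log2 ratios became 1.77 after let-7 and 1.37 after miR-294, in place of 1.11 and 0.66, and with only the first runs they were 0.69 and 0.24. The direction held in all 11 alternatives of each comparison.

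Read over the 8 genes, the count past 2-fold was small in each comparison. After miR-294, 0 of 8 were at least 2-fold higher and 1, Ezh1, at least 2-fold lower, where 8.13% and 15.2% of all 11178 genes were. After let-7, 1 was higher, Cbx7, and 1 lower, Mtf2, against 16.5% and 10.1% of all genes. In mock against WT cells 1 was higher, Ezh1, and 0 lower, against 28.1% and 12.7% of all genes, but Cbx7 joined at 2-fold lower under TMM or DESeq scaling, equal weight of cells, FPKM, or without the WT cell whose runs differed. With so few genes, these counts do not set the members apart from all genes. Median log2 ratios of the 8 were -0.15, -0.34 and -0.25 in the 3 comparisons, where the medians of all genes were -0.06, 0.10 and 0.18. The comparisons share the mock cells, so that they are not independent of each other.

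**Figure D3:**
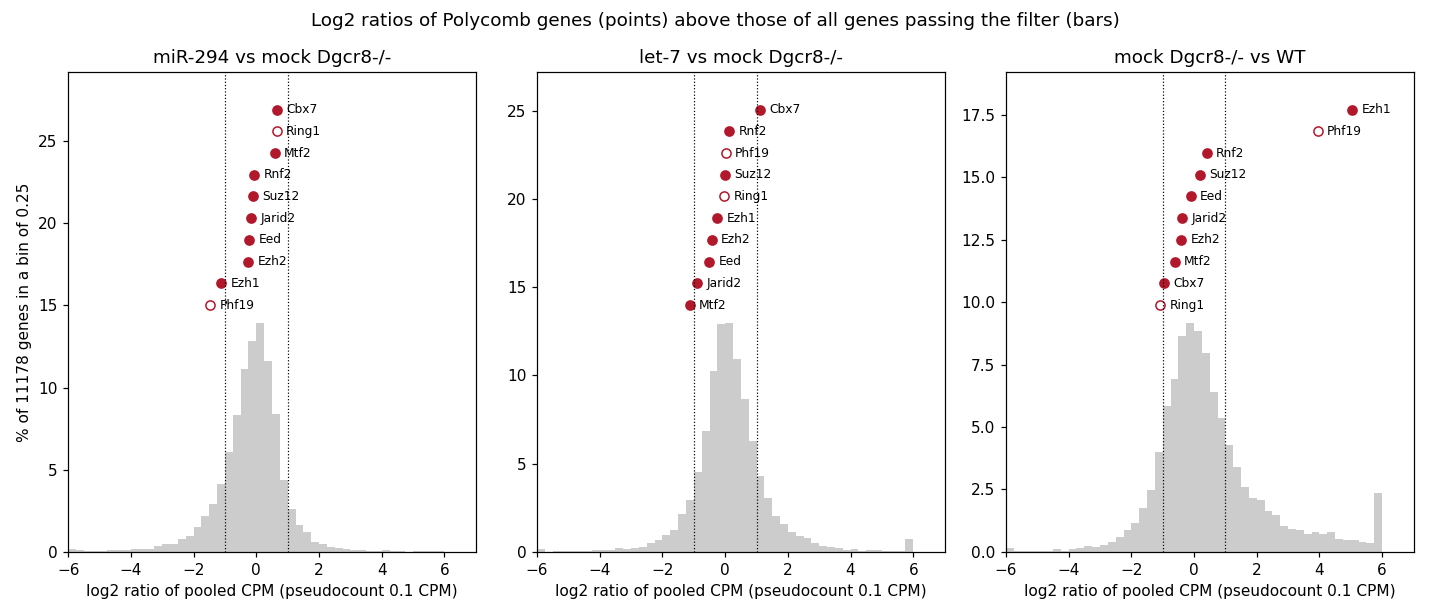
Points mark the log2 ratio of pooled CPM of each Polycomb gene in each comparison, stacked in order of value, above a histogram of the 11178 genes passing the filter; the end bars hold all genes beyond them. Open points are Phf19 and Ring1, which did not pass the filter, and dotted lines mark 2-fold. In mock against WT cells Ezh1 stood at 5.05, and after let-7 Mtf2 and Cbx7 stood at -1.13 and 1.11.

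Cell-cycle genes moved with the conditions as well. The 12 replication genes, such as those of the MCM helicase, summed to a median of 1702 CPM a cell after let-7, 3736 in mock, 4721 in miR-294 and 4609 in WT cells. All 12 of 12 were lower after let-7 than in mock cells, 4 of them past 2-fold, where 10.1% of all genes were. The 12 mitosis genes summed to a median of 848 CPM a cell after let-7, 1740 in mock, 2344 in miR-294 and 3810 in WT cells. Of these, 10 of 12 were higher after miR-294 than in mock cells, 3 of them past 2-fold (median log2 ratio 0.52), and 11 of 12 were lower in mock than in WT cells, 5 past 2-fold (median -0.89). Of all genes, 8.13% were at least 2-fold higher after miR-294 (median -0.06). In mock against WT cells 12.7% were at least 2-fold lower (median 0.18). Like Mtf2, the mitosis genes were thus higher in miR-294 and WT cells than in mock cells. After let-7 9 of the 12 were lower, with a median of -0.30, where that of all genes was 0.10. Of the 7 pluripotency markers 7 were lower after let-7 and 7 higher after miR-294, with medians of -0.67 and 0.36. The part of any of these in the levels of Mtf2, Jarid2, Ezh2 and Eed was not tested. Two-cell-like markers, which mark a rare ESC state, reached at least 100 CPM in 3 let-7, 2 miR-294 and 1 mock cell. Without those 6 cells the same members were past 2-fold, and Jarid2 and Mtf2 were at -0.84 and -1.15 after let-7.

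Across cells of 1 condition, Ezh2 followed the summed CPM of the replication genes more than most genes did. Spearman's rho was 0.44 over 57 miR-294 cells, 0.28 over 60 mock cells, 0.25 over 45 let-7 cells and 0.17 over 16 WT cells. Of the other genes, 99.9%, 96.9%, 90.1% and 71.9% had a lower rho with the same sum. Ezh2 also had a higher mean count than 91.5% of genes passing the filter, and no ranking among genes of like level was made. Rnf2 was at 0.30 in miR-294, 0.22 in let-7 and -0.09 in mock cells, and the other members lay between -0.18 and 0.17 in the Dgcr8-/- conditions. Over the 16 WT cells Jarid2 and Cbx7 were at -0.50 each. With the summed CPM of the mitosis genes, the rho of Ezh2 was 0.44 in let-7, 0.29 in miR-294, 0.25 in mock and 0.05 in WT cells, above 98.1%, 94.2%, 92.9% and 54.8% of genes. Cbx7 was at 0.35 in let-7 and 0.33 in miR-294 cells with that sum but at -0.01 in mock cells, and Ezh1 was at 0.30 in let-7 cells. Mtf2 was at 0.28 in mock cells, above 94.7% of genes, and Jarid2 at -0.26, above 1.87%. In WT, miR-294 and let-7 cells Mtf2 was at 0.10, 0.20 and 0.16, and Jarid2 at 0.36, 0.07 and 0.01. The negative value of Jarid2 was thus seen in mock cells only. All values of a cell share its library and its total, whose rho with Ezh2 was between -0.19 and 0.07, and they are given as a description. The rho of Cbx7 with that total was -0.59 in WT, 0.30 in let-7, -0.13 in mock and 0.07 in miR-294 cells. The part of depth in the other values of Cbx7 was not tested.

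**Figure D4:**
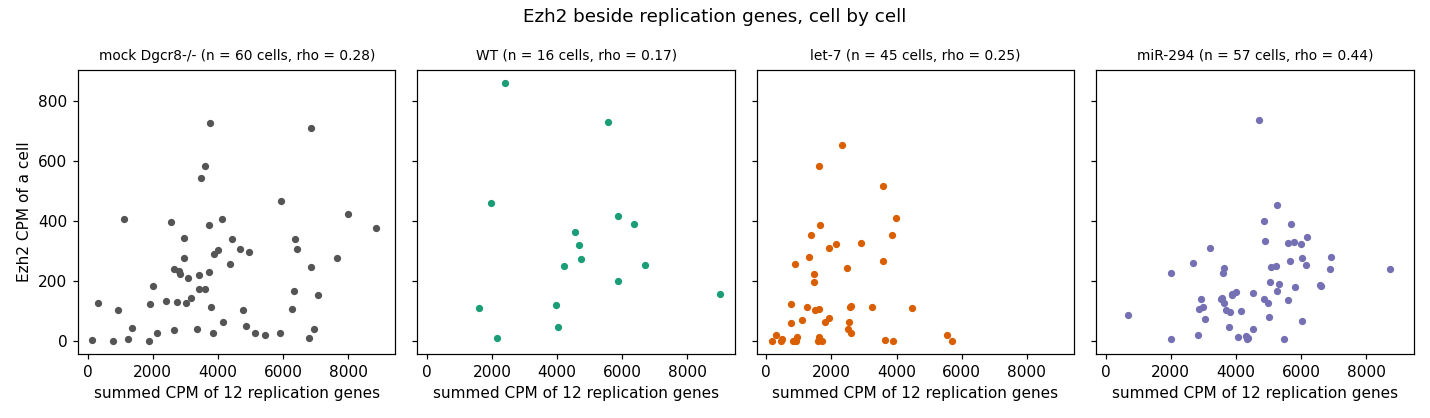
Ezh2 CPM of a cell against the summed CPM of 12 replication genes in the same cell, 1 panel for each condition, with Spearman's rho in the panel titles. The relation was loose in each condition, with rho from 0.17 to 0.44, and let-7 cells lay at lower replication sums.

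The members followed each other little from cell to cell. Over the 28 pairs of the 8 genes, the median rho was 0.06 in mock cells, 0.04 after let-7, 0.07 after miR-294 and -0.07 in WT cells. Single pairs ranged from -0.20 to 0.31 in mock cells and from -0.30 to 0.37 after let-7. After miR-294 they ranged from -0.17 to 0.26, and over the 16 WT cells from -0.39 to 0.47. The genes most like a member over the 60 mock cells were not Polycomb genes. They were Snrpd1, a spliceosome protein, and Npm1, the nucleolar protein nucleophosmin, for Ezh2 (rho of 0.57 and 0.56), and the chaperone gene Hsp90aa1 and the respiratory chain gene Uqcrb for Eed (0.53 and 0.49). Suz12 was most like 9930111J21Rik2 and Gm37404 (0.59 and 0.57), Jarid2 most like the pseudogene Rpl27-ps3 and the Wnt-inactivating enzyme gene Notum (0.50 and 0.47), and Mtf2 most like Paip1, which acts in translation, and Mob1b, of the Hippo pathway (0.52 and 0.48). These are the highest of 11146 values each, so that a high rho was bound to occur.

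Beside the 10, wider lists of Polycomb genes were counted in the same way. Of all genes passing the filter, 8.13% were at least 2-fold higher and 15.2% lower after miR-294, and 16.5% and 10.1% after let-7. In mock against WT cells 28.1% and 12.7% were, and no list was tested against these shares. Of 6 other PRC2 genes passing the filter, 2 were at least 2-fold higher and 1 lower after miR-294, 0 and 0 after let-7, and 2 and 1 in mock against WT cells. Epop, an accessory subunit linked to Elongin BC, was at 46.4 CPM after miR-294, 12.3 in mock and 35.8 in WT cells, which is 3.76-fold higher after miR-294 (interval 3.53 to 4.0) and 2.90-fold lower in mock than in WT. Epop was counted in 53 of 57 miR-294, 41 of 60 mock and 13 of 16 WT cells. The accessory gene Aebp2 was 1.53-fold higher after let-7 and 2.41-fold higher in mock than in WT cells, where 1 cell gave 57.3% of the WT counts; without the highest cell of each condition it was 4.99-fold higher than in WT. Lcor, whose locus also encodes a PRC2 accessory protein, was 2.28-fold lower after miR-294, and its relative Lcorl was 1.51-fold higher after let-7, from 7.68 to 11.6 CPM. After miR-294 Lcorl was at 16.9 CPM, a log2 ratio of 1.13, or 0.98 without the highest cells. It was counted in 23 of 60 mock, 23 of 45 let-7 and 25 of 57 miR-294 cells, with medians of 0, 0.298 and 0 CPM. Epop and Mtf2, like the mitosis genes, lay higher in miR-294 and WT cells than in mock cells, and the part of the cell cycle in that was not tested.

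Among 9 other canonical PRC1 genes, 1 was at least 2-fold higher and 1 lower after miR-294, 1 and 1 after let-7, and 2 and 4 in mock against WT cells. Cbx6, another chromodomain subunit, was at 12 CPM after let-7, 4.31 in mock, 1.28 after miR-294 and 0.654 in WT cells, and was counted in 22 of 45, 29 of 60, 10 of 57 and 5 of 16 cells. Of its mock counts 59% came from 1 cell, and without the highest cells it was 5.01-fold higher after let-7 than in mock cells and 3.61-fold higher in mock than in WT. Scml2 had the largest log2 ratio, 5.31 after miR-294, but was counted in 3 of 57 miR-294 cells and 1 of them gave 80.4% of its counts; it also had the lowest ratio of its list in the other comparisons, on 10 counts after let-7 and 42 in mock cells, and its log2 ratio of -3.05 in mock against WT cells turned to 0.37 without the highest cells, since its WT counts were all in 1 cell. Of 19 variant PRC1 genes, 1 was higher and 1 lower after miR-294, 2 and 4 after let-7, and 2 and 4 in mock against WT cells. Of all genes, 8.13% and 15.2%, 16.5% and 10.1%, and 28.1% and 12.7% were higher and lower in the same order. Pcgf5, a subunit that guides the RING ligase of variant PRC1, was at 29.8 CPM after let-7, 8.13 in mock and 0.327 in WT cells, and was counted in 30 of 45, 22 of 60 and 2 of 16 cells. Yaf2, which like Rybp binds the RING ligase, was 3.82-fold higher after let-7 and 2.09-fold lower after miR-294, counted in 18 of 45 let-7, 12 of 60 mock and 8 of 57 miR-294 cells. The corepressor gene Bcor was 2.04-fold higher after miR-294 and 2.81-fold lower in mock than in WT cells, but it was counted in 6 of 16 WT cells, with a median of 0 CPM against 2.86 in mock cells, and 1 of them gave 48% of the WT counts. Without the cell with the most counts in each condition it was 1.91-fold lower in mock than in WT and 1.96-fold higher after miR-294.

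The 7 enzymes that remove Polycomb marks or act against them included 6 above and 1 below mock cells after let-7, with a median log2 ratio of 0.53 and none past 2-fold. The median log2 ratio of all genes was 0.10, with 16.5% at least 2-fold higher and 10.1% lower. In the median cell Asxl1 and Asxl2 were not higher, at 15.9 and 80.2 CPM after let-7 against 30.9 and 80.9 in mock cells. Kdm6a, Usp16 and Mysm1 were, at 28.6, 44.3 and 90.5 against 12.3, 30.9 and 35.8 CPM. Bap1, the H2A deubiquitinase, was at 76.2 CPM after let-7, 82 after miR-294, 45.4 in mock and 78.4 in WT cells. However, 1 cell gave 53.1% of the WT counts and 1 cell 35.3% of the let-7 counts, and the medians over cells were 0 CPM after let-7, 11.8 after miR-294, 6.39 in mock and 18.3 in WT cells. Without the highest cell of each condition Bap1 was at 50.4, 69.1, 38.9 and 39.4 CPM in the same order, so that its difference between mock and WT cells rested on 1 WT cell. Its partner Asxl1 was 1.44-fold higher after miR-294, and Kdm6a, an H3K27 demethylase, 1.56-fold higher after let-7. Kdm6b, the other H3K27 demethylase, was 5.17-fold higher in mock than in WT cells (interval 4.31 to 6.26), at 25.6 against 4.95 CPM, and was counted in 59 of 60 and 15 of 16 cells.

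Of 31 developmental genes that are classic Polycomb targets in ESCs, 5 passed the filter and 8 to 21 had no count in a condition. In mock against WT cells 3 of the 5 were at least 2-fold higher and 1 lower, in few cells, against 28.1% and 12.7% of all genes. Cdkn2b had 0 counts in WT cells and 8.67 CPM in mock cells, at least 70.7-fold higher against a floor of 3 counts in the pooled WT sum, but it was counted in 7 of 60 mock cells and 1 of them gave 68.5% of its counts. Gata4 was counted in 1 of 60 mock cells and 6 of 45 let-7 cells, 1 of which gave 94.7% of its let-7 counts. Cdkn2b and Olig2 were 9.89-fold and 7.75-fold lower after miR-294 than in mock cells. They were counted in 6 and 5 of 57 miR-294 cells, and in 7 and 10 of 60 mock cells. Of the mock counts of Olig2 48% came from 1 cell. Without the highest cell of each condition their log2 ratios became -2.56 and -2.97, in place of -3.17 and -2.79. Summed over the 31 genes, the pooled level was 73.1 CPM in WT, 58.1 after let-7, 47.4 in mock and 25.4 after miR-294, and the medians of the sum over cells were 36, 21.4, 7.41 and 7.82 CPM. Of the WT sum 57.5 CPM was Eomes, a T-box factor gene chosen here after its values were seen, which was at 11.2 CPM in mock cells and was the gene lower in mock than in WT cells. The sum was therefore higher in WT than in mock cells, while the median log2 ratio of single genes was higher in mock cells. The median log2 ratio of the 5 was 4.22 in mock against WT cells, or 3.84 with the genes at 0 in WT cells set to their bounds, -1.62 after miR-294 and -0.01 after let-7.

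**Figure D5:**
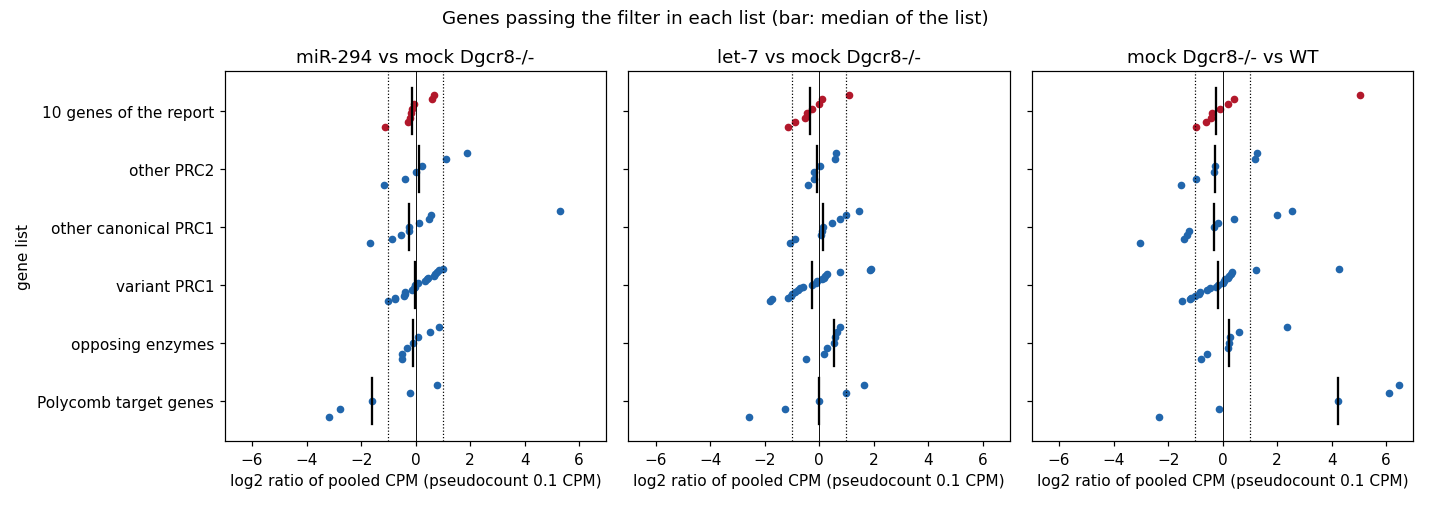
Each point is 1 gene passing the filter, placed by its log2 ratio of pooled CPM in each comparison; rows are the 10 genes of the report (8 passing), other PRC2, other canonical PRC1 and variant PRC1 genes, opposing enzymes and Polycomb target genes. Bars are list medians and dotted lines mark 2-fold. Most genes of the complexes lay within 2-fold, and the point at 5.31 after miR-294 is Scml2, counted in 3 cells.

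The reads of a few members could not be assigned beyond doubt. Mtf2 shares 6.93% of its exonic bases with Tmed5 on the opposite strand, Eed 6.82% with E230029C05Rik, Rnf2 3.83% with Trmt1l, Suz12 3.60% and Ezh2 2.61% with non-coding genes and Cbx7 1.54% with Apobec3. RSEM was run with standard parameters, which do not use strand, so reads in those stretches cannot be told apart. Between 0% and 1.65% of the 31-base stretches of each member's transcripts occurred in transcripts of another gene.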

How the data were processed

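Single cells were captured on a Fluidigm C1 chip and libraries made with Nextera XT. The authors assigned reads to Gencode M4 genes with RSEM 1.2.19 and deposited, for each run, an expected count per gene, which is not normalized, and an FPKM, scaled by length and depth. The authors had left out cells of low depth or diversity. For each cell, expected counts were added over its runs and rounded. Near-identical cells were averaged. Counts were summed over the cells of a condition and expressed as CPM of the summed totals, and log2 ratios used a pseudocount of 0.1 CPM and a minimum mean count of 5 per gene. Exact Poisson intervals were computed for sums, exact conditional binomial intervals for ratios and exact (Clopper-Pearson) intervals for shares. Reads carry no molecular identifiers, so intervals of sums and ratios cover counting error only, while those of shares are over cells. Fixed rules named the other genes: in each wider list, the 2 with the largest absolute log2 ratio in each comparison, and for 5 members the 2 with the highest Spearman rho over mock cells. A single gene that the rule names is not reported here. The members and lists were chosen with earlier results of these data known.

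The computation of the ratio and its interval was checked on simulated data. For miR-294 against mock, pooled counts of 42493 genes were drawn from Poisson distributions. A 2-fold change of 99 genes came out at a median of 1.99, and 94.6% of 2000 intervals held the true ratio. The intervals rest on the same counting model and the draws held no spread between cells, so the share says nothing of that spread. Alternatives were TMM factors (edgeR 4.0.16), DESeq size factors (DESeq2 1.42.0), equal weight of cells, a pseudocount of 1 CPM, no filter, the highest cell left out, the 3 miR-294 cells with another form of title left out, the first run only, every deposited cell, and mean FPKM. Python 3.11.15, numpy 2.4.6, pandas 2.3.3, scipy 1.17.1 and R 4.3.3 were used. 3′UTRs, positions and overlaps came from Gencode M21 (GRCm38), which is not the release the authors used.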

Additional observations from a re-analysis of the deposited data

How the results depend on the processing

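No test was run, and with 16 to 60 cells from 1 chip a condition the spread between cultures is unknown. In the miR-294 comparison the count of members past 2-fold, 1, became 2 without the filter, where Phf19 joined Ezh1, 2 without the highest cells, where Cbx7 joined, and 0 with mean FPKM. In the let-7 comparison the count, 2, became 1 with only the first run, where Jarid2 stood alone, and was 2 or 3 otherwise; with equal weight of cells the 2 were Jarid2 and Mtf2. In mock against WT cells the count, 1, became 2 with TMM factors, DESeq size factors, equal weight of cells, mean FPKM or without the WT cell whose runs differed, and 3 without the filter. The cause was not tested, except that settings without the filter count 10 members. The settings leaving out cells high in two-cell-like markers and cells whose runs differ were chosen after seeing the data. For the named genes of the wider lists, the highest cell, or the cell with the most counts, of each condition was also left out, a choice made after seeing the data, and Scml2 in mock against WT cells turned from -3.05 to 0.37 in both. Of the 10 members, 7, 6 and 9 kept the sign of their log2 ratio under all alternatives in the miR-294, let-7 and WT comparisons. Leaving out the highest cells moved the median log2 ratio of all genes in mock against WT cells by 0.40, to 0.58, and with it 39.8% of genes were at least 2-fold higher and 7.61% lower, and DESeq size factors moved it by -0.15. Of 40 shares of cells with a count, 38 stayed in their interval when thinned to 500000 counts and 33 with a minimum of 5 counts. No paired analysis was possible because the result comes from no test and cells of different conditions share no culture.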
